A study of Rattus norvegicus with 4 samples.

Results

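The genes of cholesterol synthesis and sterol regulation were followed in the pancreas of rats fed diets with little or much iron. They comprised 28 genes of the 26464 named on the array, carried by 33 of its 30367 probes. The choice went by known roles in making, sensing, moving or exporting sterol, with earlier results of these data known. Male Sprague-Dawley rats received a deficient diet (FeD, 5 ppm iron), an adequate diet (FeA, 35 ppm) or an overload diet (FeO, 20275 ppm) for 3 weeks. Pancreatic RNA of 6 rats per diet was combined into 1 pool, so the spread between animals was not measured and no test of a diet was possible. Each of the FeD and FeO pools was hybridised against the FeA pool on 2 two-colour Agilent arrays with the dyes exchanged, in which the diet pool was red on array 1 and green on array 2. These 2 arrays are technical repeats of the same RNA. In pooled whole tissue, fewer cells of a type and less RNA per cell cannot be told apart.

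Cholesterol is built from acetyl-CoA through mevalonate, isoprenoids and squalene, and the sterol rings are then trimmed by enzymes of the endoplasmic reticulum, several of which carry iron. When membranes hold little sterol, SCAP escorts the transcription factor SREBP-2 out of the endoplasmic reticulum and the genes of the pathway are switched on together; INSIG proteins hold the complex back when sterol is plentiful. Surplus sterol, read through its oxidised forms by the nuclear receptor LXR, raises the genes for its export. Exocrine pancreas is rich in endoplasmic reticulum, the membrane in which most of this pathway lies.

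The promoters of a synthesis enzyme, of the pathway's transcription factor and of the gene with the largest mean ratio among these genes are shown, because genes that SREBP-2 switches on are usually read together with the factors NF-Y and Sp1. Each stretch runs from 250 bases before to 50 bases after the transcription start in RefSeq's GRCr8 build, 5′ to 3′, and capitals mark the NF-Y box CCAAT on either strand.
Hmgcs1 (chr2:53382054-53382353, plus strand): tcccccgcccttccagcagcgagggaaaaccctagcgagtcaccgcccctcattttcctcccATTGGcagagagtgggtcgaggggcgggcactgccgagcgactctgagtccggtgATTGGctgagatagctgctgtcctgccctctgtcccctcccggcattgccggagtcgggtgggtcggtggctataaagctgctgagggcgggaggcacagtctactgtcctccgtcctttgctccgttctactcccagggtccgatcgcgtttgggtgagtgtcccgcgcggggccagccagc
Srebf2 (chr7:115543057-115543356, plus strand): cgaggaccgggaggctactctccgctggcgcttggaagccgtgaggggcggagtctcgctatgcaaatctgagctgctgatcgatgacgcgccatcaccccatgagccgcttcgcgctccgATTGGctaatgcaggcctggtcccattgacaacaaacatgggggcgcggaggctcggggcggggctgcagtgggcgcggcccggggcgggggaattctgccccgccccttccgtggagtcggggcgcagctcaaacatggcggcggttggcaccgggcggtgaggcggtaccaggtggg
Insig1 (chr4:8057720-8058019, minus strand): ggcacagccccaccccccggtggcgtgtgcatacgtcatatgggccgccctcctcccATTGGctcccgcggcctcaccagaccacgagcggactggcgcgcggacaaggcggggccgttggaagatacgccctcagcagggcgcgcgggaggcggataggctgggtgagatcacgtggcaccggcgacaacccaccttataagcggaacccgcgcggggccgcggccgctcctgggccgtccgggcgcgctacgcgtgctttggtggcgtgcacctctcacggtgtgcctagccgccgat
RefSeq promoters were matched for 23 of the 28 genes, and none was matched for Sqle, Fdft1, Pmvk, Stard4 or Abcg1. On both strands, CCAAT was found in 16 of the 23 promoters (69.6%) and in 37.5% of all 33469 promoters of the table. The Sp1 box GGGCGG was found in 18 of the 23 (78.3%) and in 33.1% of all. The sterol regulatory element core TCACNCCAC was found in 0 of the 23 and in 1.12% of all. Only exact matches to these letters in this window were counted, so the 0 does not show that such elements are absent. Each motif was counted on its own, so the hits of 2 motifs may share end bases, and a match in this window is not a measured binding site.

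A gene is called higher or lower in a diet pool below when its mean log2 ratio over FeA was at least 0.5 in size, 1.41-fold, with the same sign on both arrays. Values were obtained for 26 of the 28 genes in each comparison. Hsd17b7, which encodes a sterol ketone reductase, did not rise well above background on any array of either comparison. Npc1l1, the transporter that takes cholesterol up in the gut, was well above background only in the FeA pool, on 1 of the 2 arrays of the FeD comparison. There its log2 ratios were -0.50 and -0.40, with the FeD pool well above background on neither array. On the FeO arrays its ratios were -0.53 and -0.36, with neither pool well above background. No fold is given for either comparison.

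Under iron deficiency, 0 of the 26 genes measured were called higher and 0 were called lower in the FeD pool. Over the whole array, 1.71% of genes were called higher and 0.929% lower in this comparison. The mean log2 ratios ran from -0.13 for Msmo1 to 0.25 for Srebf2, with a median of 0.03 beside 0.01 over all genes measured. The 2 arrays had the same sign for 9 genes, 34.6% beside 46.9% of all genes, and opposite signs for 17. Their median half-difference, 0.13, was larger than the median size of the mean ratios, 0.07. Under iron overload, 2 of the 26 genes, Insig1 and Abcg1, were called higher in the FeO pool and 0 were called lower. Here 3.33% of all genes were called higher and 1.99% lower. The means ran from -0.20 for Mvd to 0.87 for Insig1, with a median of 0.06 beside 0.01 over all genes. The sign was the same on both arrays for 15 genes, 57.7% beside 52.2% of all genes. At the study's own size cutoff, a log2 ratio of 2, 0 genes passed in either comparison, against 0.102% of all genes for FeD and 0.177% for FeO. Both comparisons share the FeA pool, so their values below stand side by side and are not independent of each other.

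**Figure D1:**
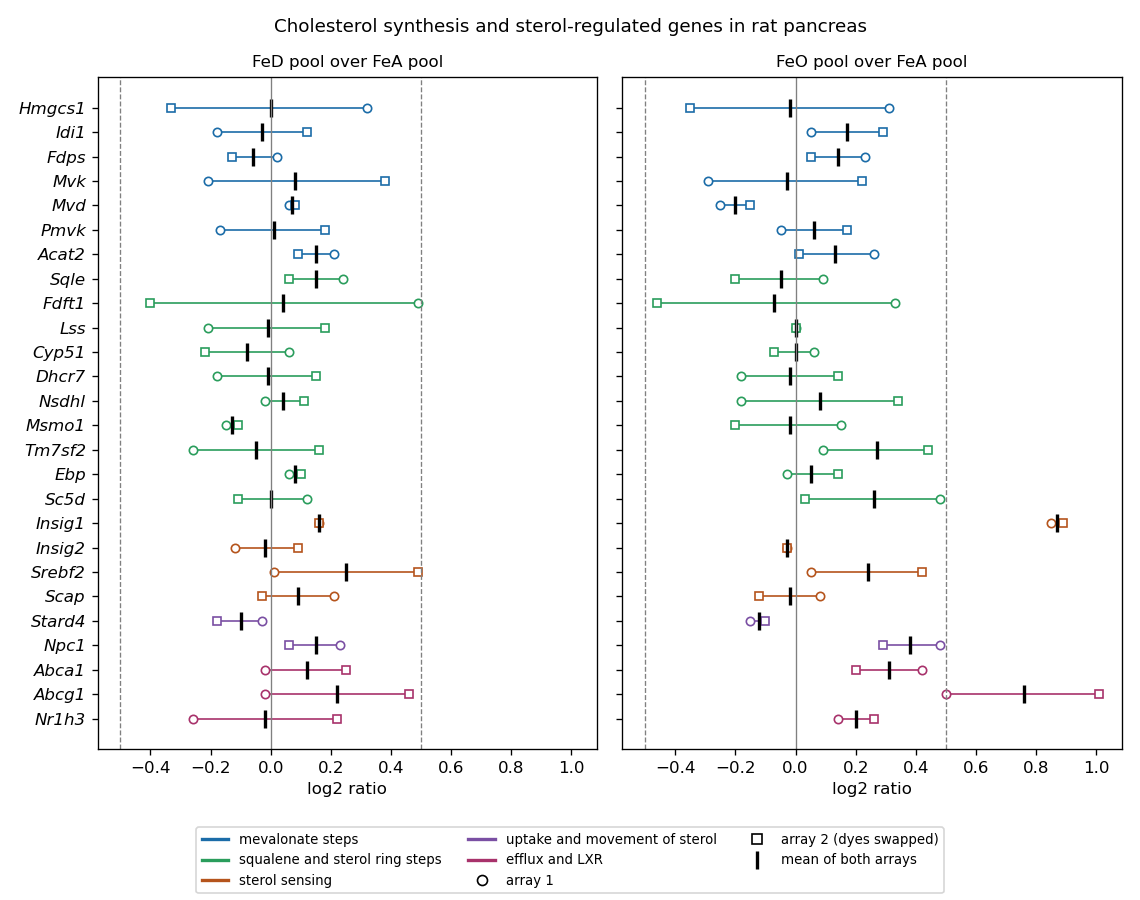
Log2 ratio of the FeD pool (left) and the FeO pool (right) over the FeA pool for the 26 genes measured, grouped by role. Circles and squares are the 2 dye-swapped arrays, black bars their mean, and dashed lines a log2 ratio of 0.5 in size; Insig1 at 0.87 and Abcg1 at 0.76 are the genes whose mean lies past a dashed line, both in FeO.

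The mevalonate branch, from the thiolase that joins acetyl units to the synthase that makes farnesyl diphosphate, differed little from FeA in either pool. Hmgcs1 encodes the synthase that makes HMG-CoA, and its FeD log2 ratios were 0.32 and -0.33, a mean of 0.00. Its FeO ratios were 0.31 and -0.35, a mean of -0.02. Whichever pool was red read higher for this gene by 0.31 to 0.35 on all 4 arrays, whatever its diet. With the same dye, the FeO and FeD ratios of Hmgcs1 differed by -0.02 on each array. Mvk, the mevalonate kinase, split the other way, at -0.21 and 0.38 in FeD and -0.29 and 0.22 in FeO. Its means were 0.08 and -0.03. Of the 26 genes, 8 had a red over green ratio of the same sign on all 4 arrays, 4 positive and 4 negative, and for these genes a single array would give a direction that its partner turns.

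Acat2, the cytosolic thiolase that starts the branch, had FeD ratios of 0.21 and 0.09 and FeO ratios of 0.26 and 0.01. Its brighter probe changed sign with the dye, at 0.27 and -0.24 in FeD and 0.36 and -0.11 in FeO. The dimmer probe of Acat2 read 0.15 and 0.42 in FeD and 0.15 and 0.13 in FeO. Pmvk, which adds the second phosphate to mevalonate, averaged 0.01 in FeD and 0.06 in FeO. Mvd encodes the decarboxylase that yields isopentenyl diphosphate, and its ratios were 0.06 and 0.08 in FeD and -0.25 and -0.15 in FeO. Mvd was the one gene of the 26 whose sign was positive on both arrays of one comparison and negative on both of the other, with means of 0.07 and -0.20 that stay well inside the size criterion. Idi1, the isomerase of isopentenyl diphosphate, had ratios of -0.18 and 0.12 in FeD and 0.05 and 0.29 in FeO. Fdps, which makes farnesyl diphosphate, had ratios of 0.02 and -0.13 in FeD and 0.23 and 0.05 in FeO. The median over the 7 genes of the branch was 0.01 in FeD and 0.06 in FeO.

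Squalene and sterol ring enzymes gave a median of -0.01 in FeD and 0.00 in FeO over the 10 genes measured, and the 2 arrays had opposite signs for 7 of the 10 in each comparison. Fdft1, the squalene synthase, had the widest split, with ratios of 0.49 and -0.40 in FeD and 0.33 and -0.46 in FeO. Its means were 0.04 and -0.07, and the red pool was the higher one on all 4 arrays. Sqle encodes squalene epoxidase, which uses oxygen and flavin, and its ratios were 0.24 and 0.06 in FeD and 0.09 and -0.20 in FeO. Lss, which folds the epoxide into lanosterol, averaged -0.01 in FeD and 0.00 in FeO.

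Iron sits in the active site of 3 of the ring enzymes, as heme in the lanosterol demethylase Cyp51 and as an iron pair in the methyl oxidase Msmo1 and the desaturase Sc5d. None of these 3 transcripts was called in either pool. Cyp51 had ratios of 0.06 and -0.22 in FeD and 0.06 and -0.07 in FeO. Msmo1, the lowest of the 26 genes in FeD, had ratios of -0.15 and -0.11 there and 0.15 and -0.20 in FeO. Sc5d had ratios of 0.12 and -0.11 in FeD and 0.48 and 0.03 in FeO, so its FeO mean of 0.26 came almost wholly from array 1. The median over these 3 genes was -0.08 in FeD and 0.00 in FeO.

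Other ring enzymes carry no iron in the active site. Tm7sf2, a sterol reductase of the nuclear and endoplasmic membrane, had ratios of -0.26 and 0.16 in FeD and 0.09 and 0.44 in FeO, the highest mean of the ring enzymes in FeO at 0.27. Its signals were low, 57.1 to 112 intensity units over the 4 arrays, and its FeO mean became 0.60 with a background offset of 0, past the criterion. Nsdhl, a decarboxylating sterol dehydrogenase, averaged 0.04 in FeD and 0.08 in FeO. Ebp, the sterol isomerase, averaged 0.08 and 0.05, and Dhcr7, the reductase of the last step, -0.01 and -0.02. With the offset of 50 used for the ratios given here, the means for these 4 genes lay below the criterion in both pools.

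The sterol sensors held the largest mean ratio of the 26 genes measured. Insig1 encodes the endoplasmic reticulum anchor that keeps SCAP and SREBP in place when sterol is plentiful, and is itself a target of SREBP. On the FeO arrays its processed signal was 1030 and 1400 intensity units in the FeO pool against 554 and 720 in the FeA pool. These signals are the scanner software's own, while the log2 ratios were computed apart from them with another background correction and loess, so the ratio of 2 signals and the log2 ratio need not match. The log2 ratios were 0.85 and 0.89, a mean of 0.87 or 1.82-fold, and the 2 arrays differed by far less than the size of the ratio. On the FeD arrays the signal was 622 and 660 in the FeD pool against 572 and 567 in the FeA pool, with a log2 ratio of 0.16 on each. The FeO signal of Insig1 lay above all 6 other readings of the gene, which ran from 554 to 720.

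Insig2, the related anchor that SREBP does not drive, had ratios of -0.12 and 0.09 in FeD and -0.03 on both arrays in FeO. The FeO values of Insig2 average 2 probes of opposite sign, -0.11 and -0.21 for the brighter and 0.05 and 0.16 for the dimmer. Srebf2, which encodes SREBP-2, had signals of 921 and 1130 in FeD against 933 and 736 in FeA, giving log2 ratios of 0.01 and 0.49. On the FeO arrays its signals were 796 and 1190 against 805 and 839, giving 0.05 and 0.42. In both comparisons the excess of Srebf2 was seen on array 2 and was close to 0 on array 1. The means, 0.25 and 0.24, were below the criterion. Scap, the escort protein, averaged 0.09 in FeD and -0.02 in FeO.

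**Figure D2:**
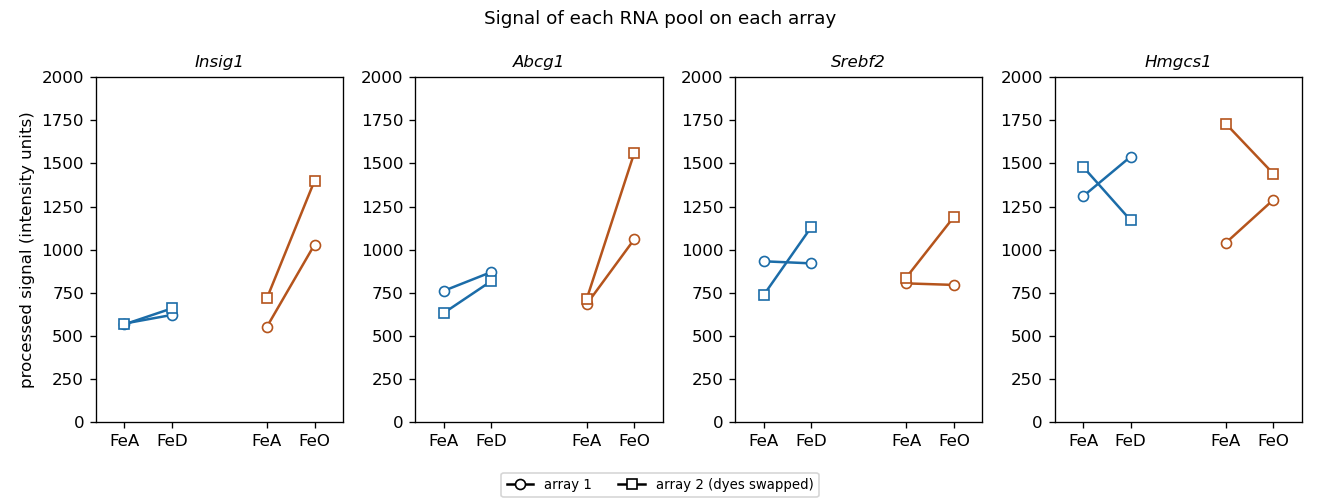
Processed signal in intensity units of the FeA pool and the diet pool on each array, for Insig1, Abcg1, Srebf2 and Hmgcs1, on axes that start at 0. Lines join the 2 pools of 1 array: Insig1 and Abcg1 are higher in FeO on both arrays, Srebf2 is higher on array 2 alone, and the lines of Hmgcs1 cross or run opposite ways.

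Of the genes that take up or move sterol, Npc1 and Stard4 were measured, and neither was called in either pool. Npc1 encodes the lysosomal membrane protein that hands cholesterol from endocytosed lipoprotein to the rest of the cell. Its FeD ratios were 0.23 and 0.06 and its FeO ratios were 0.48 and 0.29, means of 0.15 and 0.38. It stayed below the criterion in both, although the mean of its 2 probes was positive on all 4 arrays. The brighter probe alone read -0.02 on FeD array 2. The 2 probes of Npc1 gave FeO means of 0.31 and 0.45. Over the 5 genes with 2 probes each, the probes' means differed by at most 0.27, in Acat2. Stard4, a soluble carrier of sterol, averaged -0.10 in FeD and -0.12 in FeO. The mean of its 2 probes was negative on all 4 arrays, although the dimmer probe read 0.09 on FeD array 1.

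Of the 3 genes of sterol export and LXR, 1, Abcg1, was called higher in FeO and 0 were called in FeD. Abcg1 encodes a transporter that loads cholesterol onto lipoprotein particles and is a classical target of LXR. Its processed signal on the FeO arrays was 1060 and 1560 in the FeO pool against 684 and 713 in the FeA pool. The log2 ratios were 0.50 and 1.01, a mean of 0.76 or 1.69-fold. On the FeD arrays the signals were 871 and 819 against 762 and 634, with ratios of -0.02 and 0.46. Array 2 gave the higher ratio in both comparisons, and the FeO signals lay above all 6 others, which ran from 634 to 871. Abca1, the exporter to lipid-poor apolipoprotein, had ratios of 0.42 and 0.20 in FeO and -0.02 and 0.25 in FeD. Its signals were only 41.5 to 98.2 intensity units, and its FeO mean of 0.31 became 0.63 with a background offset of 0 and 0.87 with the scanner software's processed signals, past the criterion in both. Nr1h3, which encodes LXR alpha, had ratios of 0.14 and 0.26 in FeO and -0.26 and 0.22 in FeD.

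Setting the FeO arrays against the FeD arrays of the same dye orientation gives an indirect comparison of overload with deficiency, in which the FeA pool and much of each gene's dye preference drop out. By the same criterion, 2 of the 26 genes were called higher in FeO than in FeD and 0 lower, beside 2.16% higher and 2.27% lower over all genes. Insig1 differed by 0.68 and 0.72, a mean of 0.70 or 1.63-fold. Abcg1 differed by 0.52 and 0.55, a mean of 0.54, so its array difference seen against FeA was smaller here. The other 24 genes had mean differences from -0.27 for Mvd to 0.32 for Tm7sf2, and the median of the 26 was 0.02 beside 0.00 over all genes. Fdft1, split widely against FeA, differed by -0.17 and -0.06, and Sqle differed by -0.15 and -0.25. The sign of the difference was the same on both arrays for 15 of the 26 genes, 57.7% beside 67.8% of all genes.

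**Figure D3:**
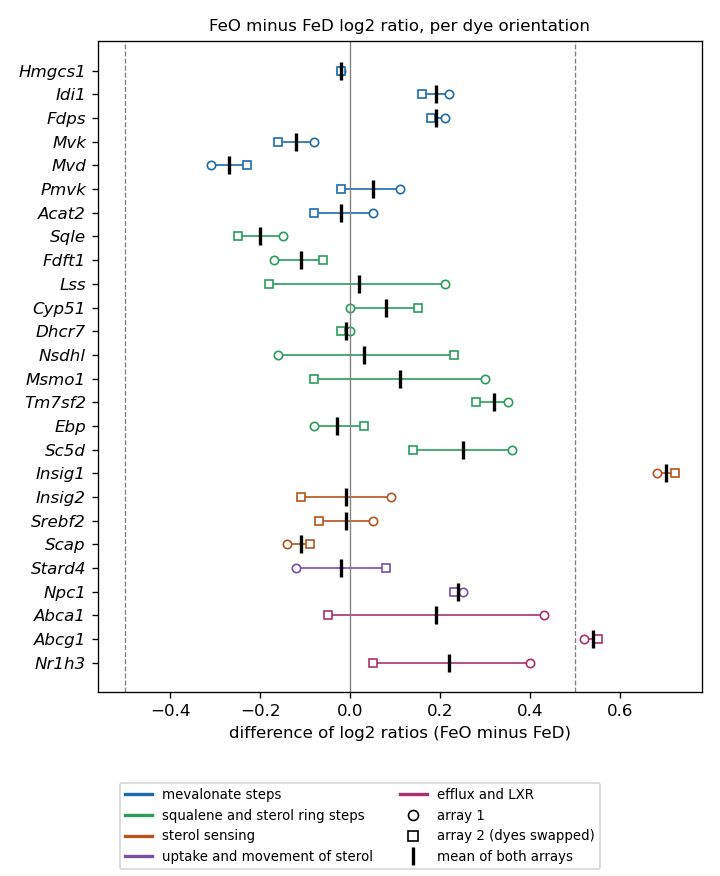
Difference of the FeO and FeD log2 ratios for the 26 genes measured, taken within each dye orientation (circles, squares) with the mean as a black bar and dashed lines at 0.5 in size. Insig1 (0.70) and Abcg1 (0.54) lie past the upper line, and the arrays of Hmgcs1 that were split against FeA coincide at -0.02.

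The FeA pool was hybridised on all 4 arrays, which gives a reading of the array error without any diet. Between the FeD and the FeO arrays of the same dye, the FeA signal of the 26 genes differed by means of -0.32 for Nsdhl to 0.12 for Dhcr7, with an SD of 0.11 across genes. None of the 26 reached 0.5 in size, while 919 of the 15235 genes measured in both comparisons did. Insig1 differed by 0.09 and 0.01, and Npc1 by 0.14 and 0.02. The FeO ratios of Insig1 and Abcg1 were larger than any mean difference between the repeats of FeA among these 26 genes. Over all genes measured in both comparisons, those differences ran from -2.43 to 3.02, with an SD of 0.28. They compare single channels across arrays, while the ratios compare pools within an array. Whether the ratios of Insig1 and Abcg1 exceed array error was therefore not tested.

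Genes around the pathway were read from lists chosen by function. Among 26 other sterol and isoprenoid genes on the array, 0 of the 20 measured in FeD were called, and 1 of the 23 measured in FeO was called higher. Cyb5r3, the reductase that feeds electrons to the desaturases through cytochrome b5, had FeO ratios of 0.15 and 1.16, and in FeD -0.10 and 0.85. Its call in FeO was lost without array 2. Of 7 measured genes of the LXR and oxysterol list, Mylip was called lower in FeD at -0.46 and -0.62, and 0 were called in FeO, where Mylip stood at -0.31 and -0.56. The FeD call of Mylip, a mean of -0.54, was lost without array 2 (-0.46) and with no filter on dim probes (-0.33). Mylip encodes the ligase that marks lipoprotein receptors for breakdown.

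The fatty acid synthesis genes are driven by the related factor SREBP-1. Of the 11 measured, 1 was called higher in FeD and 3 in FeO, with medians of 0.05 and 0.14. The 3 called in FeO had larger mean ratios there than any mevalonate, squalene or sterol ring enzyme measured. Fasn, the fatty acid synthase, had ratios of 0.51 and 0.91 in FeD and 1.33 and 2.00 in FeO, a FeO mean of 1.67 or 3.17-fold. Thrsp, a lipogenic regulator, had ratios of 1.33 and 1.83 in FeO and 0.11 and 0.35 in FeD. Me1, the malic enzyme that supplies NADPH, had ratios of 0.53 and 0.54 in FeO and 0.20 and 0.19 in FeD. Its FeO call was lost with the brightest probe alone, at 0.37, and without background subtraction, at 0.50 as rounded. Acly, which supplies cytosolic acetyl-CoA to both pathways, averaged 0.05 in FeD and 0.03 in FeO.

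Several lists of cell type markers differed between the pools. Of the 8 adipocyte markers measured, 5 were called higher in FeO, with a median log2 ratio of 1.65, and 0 of 7 in FeD, with a median of -0.03. Adipoq, the adipokine gene, had ratios of 1.97 and 2.17 in FeO and 0.17 and 0.26 in FeD. The summed signal of the 8 markers was 18000 to 25900 intensity units in the FeA pool, 15400 to 19800 in FeD and 76000 to 88900 in FeO. Fat cells express Insig1, Abcg1, Fasn, Thrsp and Me1, and the part of these cells in the FeO ratios of those genes was not tested. Of the 6 macrophage markers measured in FeO, 1 was called higher, Cd163 at 0.77 and 1.13, and the median was 0.31. Lyz2 of the same list went from 0.86 and 0.33 in FeD, the 1 call of 5 markers there, to 0.19 and -0.62 in FeO. Their summed signal was 7120 to 23400 in FeA, 24100 to 27900 in FeD and 7860 to 18100 in FeO, so the FeA and FeO ranges overlap. Macrophages express Abcg1 and Abca1 strongly, and their part in those ratios was not tested either.

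Markers of intestine, which lies beside the pancreas, were lower in both diet pools. Intestinal epithelium markers were called lower for 7 of 8 genes in both comparisons, with summed signals of 8200 to 10500 in FeA, 2750 to 2830 in FeD and 2050 to 2750 in FeO. Npc1l1 is a gene of that epithelium, and the part of such cells in its FeA signal was not tested. For acinar markers, which define the tissue, 5 genes were summed. They gave 2800000 to 5810000 intensity units in FeA, a range that holds the FeD and FeO sums. All FeA values are readings of 1 pool, so differences inside that range were not resolved by the sums. Of the acinar markers measured, 2 of 7 were called higher in FeD, Cela1 and Ctrb1, with a list median of 0.14. In FeO 1 of 5 was called lower, Cel, with a list median of -0.30, and all 5 means were below 0 in the indirect comparison, with a median of -0.42.

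Immune and endocrine markers differed as well. Lymphocyte markers were called higher for 4 of 6 in FeD, with a median of 0.63, and lower for 3 of 5 in FeO, with a median of -0.91. Their summed signal was 4900 to 4990 in FeD, 2460 to 2910 in FeA and 1020 to 1270 in FeO. Islet markers were called lower for 4 of 6 in FeO, with a median of -0.79, while Gcg, which encodes glucagon, was called higher with a mean of 1.14. In FeD 1 of 6 islet markers was called lower, with a median of -0.33. The part of acinar, lymphocyte and islet cells in the ratios of the sterol genes was not tested.

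**Figure D4:**
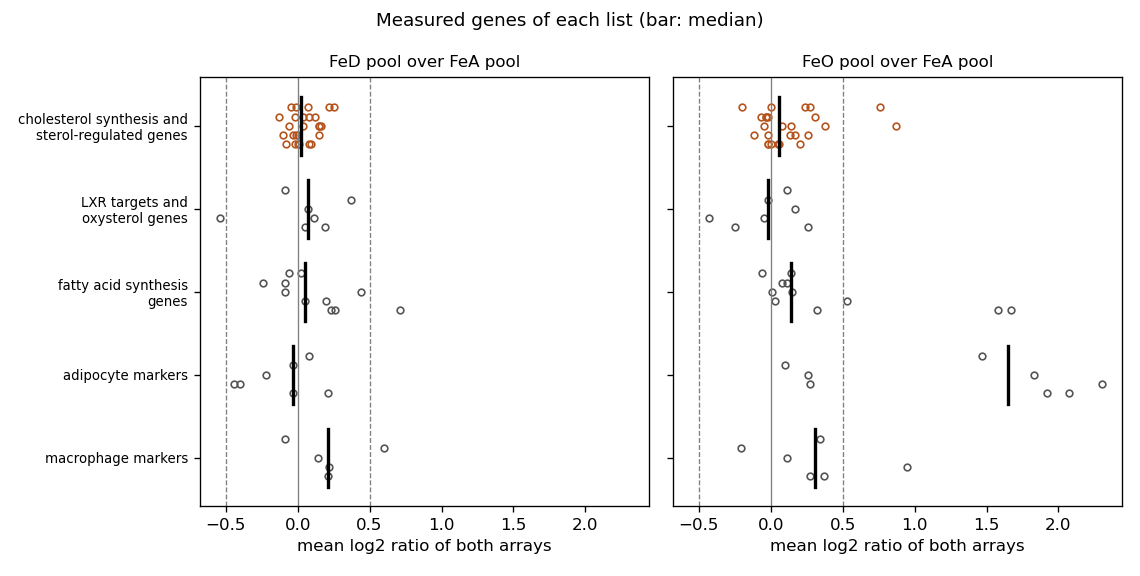
Mean log2 ratio of both arrays for each measured gene of the sterol genes and of 4 other lists, in FeD (left) and FeO (right); black bars are medians and dashed lines mark 0.5 in size. In FeO the sterol genes lie between the dashed lines except Insig1 and Abcg1, while 3 fatty acid synthesis genes and 5 adipocyte markers lie past the upper line.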

How the data were processed

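The 4 arrays share 1 slide and 1 scan, per the file headers. The intensity values were deposited by the authors as Agilent Feature Extraction 10.1.1.1 output, with median spot and background signals uncorrected and processed signals background corrected and dye normalized. The authors' own tables hold fold changes, p-values, q-values and a tag per probe, of which only the gene symbols were used here.

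In R 4.3.3 with limma 3.58.1, median signals were corrected by normexp (offset 50) and normalized by loess within each array. Control spots had weight 0, and spots marked as outliers (722, 938, 764 and 735) were left out. On each channel 61.9% to 71.5% of spots were well above background. Spots of a probe, then probes of a gene, were averaged. A probe was kept when more than 50% of its spots were well above background on both arrays in at least 1 pool of a comparison. Symbols came from the authors' table for 22949 probes, updated through RefSeq synonyms, and from the array for 7418. Msmo1, Sc5d and Npc1 are listed there under older aliases. Ratios of array 2 were turned. The steps were tested on simulated data that held no dye preference of single genes, so that test does not cover this error. The number of arrays limits the precision.

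Named were all 28 genes and, of the other lists, genes past the size criterion in either comparison, up to 4 per direction. Genes named besides these (Acly and the cell type markers) were picked after their values were seen. The value of 1 gene of the other lists is not reported here. Members and lists were chosen with earlier results of these data known. Summaries used Python 3.11.15 with pandas 2.3.3. Alternatives covered background correction, normalization, filters, probe choice, size criteria, each array left out, the methods' t-test and limma's test.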

Additional observations from a re-analysis of the deposited data

Results flagged for a closer look

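The FeO and FeD ratios of Mvd, the mevalonate decarboxylase, had opposite signs on both arrays, 0.06 and 0.08 in FeD against -0.25 and -0.15 in FeO. The difference of the means was -0.27, below the size criterion, and it was not tested because each diet is 1 pool.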

How the results depend on the processing

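Insig1 and Abcg1 were called higher in FeO under each of the 10 alternatives of background correction, normalization, filter, probe choice and left-out array. Each of these genes has 1 probe, well above background in both pools on every array. The filters, the probe choice and Aquantile therefore could not change their ratios. An offset of 0 raised the count in FeO from 2 to 4 by adding Tm7sf2 and Abca1, and processed signals raised it to 3 by adding Abca1. Indirectly, these settings gave 3, adding Tm7sf2 (0.71) and Abca1 (0.63). Size criteria of 1 and 0.25 gave 0 and 6 genes higher in FeO, and 0 and 4 in the indirect comparison, where the smaller one also gave 1 lower, Mvd. Without background subtraction the indirect count was 1, Insig1. The methods' t-test and limma's test compare 2 technical arrays of the same pools: 1 gene, Insig1, stayed past the t-test's threshold, 0 after its Benjamini-Hochberg adjustment and 1, Insig1, after that of limma. In FeD the count of genes called was 0 under every alternative run.

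The median of the 26 genes in FeO, 0.06, became 0.10 with processed signals and 0.06 with median centring, which moved the median of all genes to 0.03. Indirectly it became 0.10 with processed signals. With either array left out, the median ran from 0.00 to 0.10 in FeD, from 0.08 to 0.09 in FeO and from -0.02 to 0.07 indirectly, with 0 genes higher in FeD, 2 in FeO and 2 indirectly, and 0 lower in each. Of 658 values of single genes under the 7 alternatives that leave out no array and can change a ratio, 91 moved by more than the spread of the arrays, and 0 reversed a called direction. Aquantile changes no ratio, and leaving out an array moves each by its own array difference, so these were not counted. The cause of these shifts was not tested.

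No paired analysis was possible because each diet is 1 pool and no result comes from a test. Ratios under about the array half-difference, 0.13 in FeD and 0.12 in FeO for these genes, were not resolved, and differences between animals were not measured.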
